A study of Arabidopsis with 12 samples.

Results

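Sucrose was compared with sorbitol in leaves of shaded wild-type Arabidopsis (Col-0), across every gene whose abundance reached 1 TPM, a transcript level scaled for gene length and library size, in at least 3 of the 12 libraries of the study. That rule kept 19862 of the 32833 genes in the deposited table. After 10 days of white light, seedlings spent 6 h in shade (R/FR 0.17) in 1/2 MS liquid medium with 30 mM of one or the other compound, and polyadenylated RNA was sequenced from their leaf portions. The study holds 4 groups of 3 libraries: the wild type on sorbitol, the wild type on sucrose, and the phyA-211 mutant, which lacks the far-red photoreceptor phytochrome A, on each of them. All groups were shaded and all received a sugar or sugar alcohol, so neither an unshaded nor a sugar-free leaf stands in the comparison. The comparison asks what added sucrose did to the leaf transcriptome under shade. The Col-0 libraries are called sorbitol 1 to 3 and sucrose 1 to 3 below, and series of values follow that order. The labels do not say whether the libraries came from separate cultures, so the p-values measure only the spread between these samples. Genes were sorted by their deposited description into 75 families and pathways that held 4526 of the tested genes.

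Plants read carbon supply through several signalling routes. The TOR kinase promotes ribosome building, protein synthesis and cell division when sugar is plentiful, whereas SnRK1 kinases act in low energy and turn on genes that recover carbon from amino acids, fatty acids and cell material. Sorbitol is a sugar alcohol that serves as an osmotic control, because Arabidopsis uses it poorly as a carbon source. Shade lowers photosynthesis and triggers elongation of stems and petioles through the phytochromes.

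With sucrose, 2412 genes rose (12.1% of those tested) and 1976 fell (9.95%) at an adjusted p under 0.05 in a limma fit on log2(TPM + 1). These shares are the background for the family counts over all 6 Col-0 libraries. The median log2 change was 0.76 in size among the genes that rose and 0.72 among those that fell. The sucrose and sorbitol libraries did not overlap in 8454 of the tested genes (42.6%). That held for 2402 of the rises and 1965 of the falls, so a lack of overlap adds little to a call. Steep changes were more often falls: 91 genes fell and 30 rose by more than 2 on the log2 scale. The risen genes held 13, 13.6 and 11.1% of all TPM in sorbitol 1 to 3 and 22, 21.6 and 21.8% in sucrose 1 to 3. The fallen genes held 14.8, 15.5 and 19.3% in the sorbitol libraries and 8.07, 7.81 and 8.14% in the sucrose libraries. Sucrose libraries were close to each other in both shares, and sorbitol 3 had the largest share of the genes that sucrose lowered. These genes were called from the same libraries, so the shares cannot rank the libraries by spread. By the median absolute log2 distance to the own group, sucrose 1 (0.24) and sucrose 3 (0.235) deviated about as much as sorbitol 3 (0.229). Sucrose 2 lay closest to its group. Without sorbitol 3, 1142 genes rose (5.75%) and 1221 fell (6.15%). The rises numbered 1384 without sucrose 1 (6.97%) and 1347 without sucrose 2 (6.78%), and the falls 1626 (8.19%) and 1120 (5.64%). Without sorbitol 1, sorbitol 2 or sucrose 3, 9.2, 9.55 and 10.9% of the genes rose and 7.81, 6.92 and 7.94% fell. A family count given without a library is to be read against the share of that fit. The genes called in each of the 6 fits that left out 1 Col-0 library numbered 1038 risen and 1008 fallen. Unless a library is named, each gene described below kept its call in all 6 of those fits.

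**Figure D1:**
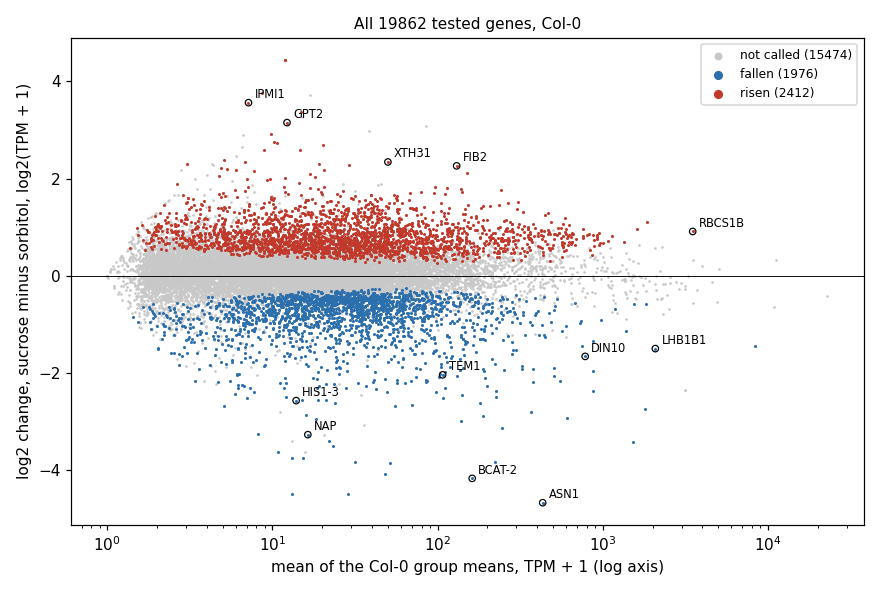
Mean of the Col-0 group means as TPM + 1 (x axis, log scale) against the log2 change from sorbitol to sucrose on the log2(TPM + 1) scale (y axis) for all 19862 tested genes, with genes that rose or fell at an adjusted p under 0.05 in colour. Of the tested genes 2412 rose and 1976 fell; the lowest point, ASN1, lies at -4.67.

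The leaf identity of the libraries was checked with 11 leaf markers, which include the small subunits of Rubisco. RBCS1A read 9866, 9202 and 10665 TPM in the sorbitol libraries and 11794, 14055 and 11563 in the sucrose libraries. The summed level of the 11 leaf markers was 30807, 27451 and 29638 TPM with sorbitol and 31765, 38167 and 35036 with sucrose, with no overlap, and 1 of them (RBCS1B) rose. Of 12 root markers, 8 passed the filter and none was called; all 12 together summed to 65.8 to 76.5 TPM with sorbitol and 74.2 to 106 with sucrose. The quiescent centre gene WOX5 did not exceed 1.75 TPM in any Col-0 library. Of 8 markers of the shoot apical meristem and its borders, STM, KNAT1, CUC1 and CUC2 passed the filter and none was called. All 8 together summed to 17.2 to 17.6 TPM with sorbitol and 19.8 to 27 with sucrose, without overlap, and their part in the results on cell division was not tested. Summed TPM here and below covers every member in the table, those under the filter included. In bulk tissue of this kind, fewer cells of a type and less RNA per cell cannot be told apart.

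Among the steepest rises outside glucosinolate synthesis were a chaperone, a plastid sugar phosphate carrier and a cell wall enzyme. AT5G51440, an HSP20-like chaperone, rose from 1.55, 2.65 and 0.94 TPM to 25.6, 25.1 and 27.2 (log2 change 3.36 ± 0.524, SE, limma adjusted p = 0.00204). Its sucrose libraries lay close together and far above all sorbitol libraries. GPT2, which carries glucose 6-phosphate into plastids, read 0.76, 0.95 and 2.18 TPM against 22.3, 32.6 and 8.79. The spread among the sucrose libraries was wide for GPT2, and the lowest of them still exceeded every sorbitol library. XTH31, a xyloglucan-modifying enzyme of the cell wall, rose from 14.6, 16.2 and 14.9 TPM to 93.1, 93.7 and 61.6 (log2 change 2.34 ± 0.249, adjusted p = 0.000782). The MATE-family carrier AT2G04050 rose from 0.2, 2.83 and 1.2 TPM to 9.32, 18.2 and 21, and the cytochrome b5 gene CB5-C from 2.11, 2.37 and 0.4 to 10.2, 13.4 and 19. The non-coding RNA AT3G09895 was listed at 0 in all sorbitol libraries and at 14.9, 26.9 and 4.46 TPM in the sucrose libraries. Larger log2 changes (4.44 each) belonged to the non-coding RNAs U1.6 and U1.7. Both were listed at 0 in all sorbitol libraries and at 29.8, 23 and 12.9 TPM in the sucrose libraries. U1.7 lost its call without any 1 library, and U1.6 averaged 33.2 TPM in the phyA-211 sorbitol libraries.

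The steepest fall was that of ASN1, an asparagine synthetase, with a log2 change of -4.67. GLYI7, a glyoxalase-family protein, fell from 25.2, 40.3 and 97.3 TPM to 1.14, 1.03 and 1.12. GAT1_2.1, a class I glutamine amidotransferase-like protein, fell from 62.6, 88.1 and 137 TPM to 5.37, 3.95 and 7.19 (log2 change -3.85 ± 0.511, adjusted p = 0.00115). In both genes sorbitol 3 was the highest library and the sucrose libraries were tightly grouped. DIN2, a dark-inducible glycosyl hydrolase, read 9.2, 10.7 and 52.2 TPM with sorbitol and 0.31, 0.36 and 0.43 with sucrose. AT1G62420, a protein of unknown function, fell from 17.4, 27 and 38.6 TPM to 0.87, 0.59 and 1.75. AT2G22880, which carries a VQ motif found in partners of WRKY factors, read 10.8, 37.2 and 24.4 TPM with sorbitol and was listed at 0 in every sucrose library. The threonine aldolase THA1 (234, 242 and 778 TPM against 19.1, 21.2 and 33.2) and the CAP160 protein AT4G25580 (46.2, 66 and 160.2 against 3.08, 4.93 and 3.37) lost their calls without sorbitol 3.

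Most of the 10 largest gains in absolute abundance were genes of protein synthesis, namely ribosomal proteins and an elongation factor. RBCS1B, a small subunit of Rubisco, gained 2119 TPM, from 2889, 2199 and 2233 to 4231, 4880.2 and 4567 (log2 change 0.91 ± 0.181, adjusted p = 0.00524). AT5G60390, an elongation factor of the EF-Tu family, rose from 1246, 1394 and 924 TPM to 2699.9, 2571 and 2347. ATMS1, a methionine synthase, rose from 1243, 1151 and 881 TPM to 2479, 2213 and 1736 and lost its call without sorbitol 3. AAC1, which exchanges ADP and ATP across the inner mitochondrial membrane, rose from 859, 884 and 725 TPM to 1559, 1459 and 1345. The ribosomal protein genes EMB2296, AT5G20290, AT1G43170 and AT4G15000 gained 558, 519, 516 and 497 TPM. AT3G60245, also a ribosomal protein gene, gained 498 TPM and lost its call without sorbitol 1, sorbitol 3, sucrose 2 or sucrose 3. CP29, a chloroplast RNA-binding protein, gained 633 TPM and lost its call without sorbitol 3 or sucrose 1. Among the largest losses were ath-MIR2936, from 8899, 11991 and 15805 TPM to 4073, 5444 and 3705, and the rhodanese-family gene AT4G35770, from 1841, 1837 and 4731 to 192, 220.2 and 306. DYL1, a dormancy-associated protein, fell from 1299.9, 1386 and 1671 TPM to 259, 238 and 341 (log2 change -2.38 ± 0.477, adjusted p = 0.00546). All 3 of these losses had sorbitol 3 as the highest library and none of them overlapped.

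**Figure D2:**
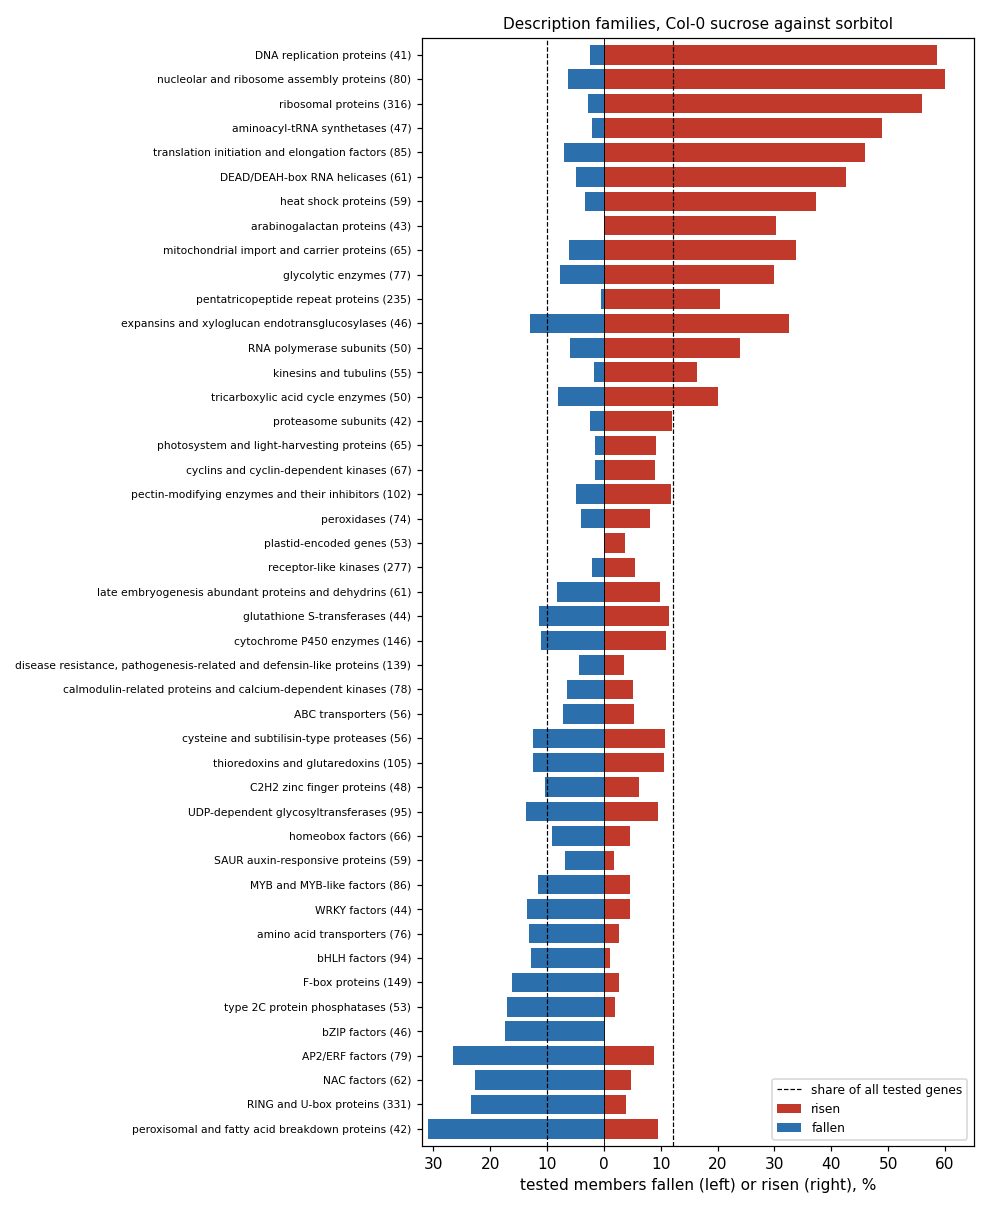
Percent of tested genes that rose (right) and fell (left) with sucrose in Col-0 for the 45 families with at least 40 tested genes, beside the shares of all tested genes (12.1% and 9.95%, vertical lines). Nucleolar, DNA replication and ribosomal proteins have the largest shares of rises (60, 58.5 and 56%), and peroxisomal, AP2/ERF and RING and U-box proteins the largest shares of falls (31, 26.6 and 23.3%).

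The ribosomal proteins were the family with the most rises. Of 316 tested ribosomal protein genes, 177 rose and 9 fell, with a median log2 change of 0.57 against 0.08 over all genes. Their summed TPM was 63805, 70032 and 62419 with sorbitol and 87985, 95401 and 108891 with sucrose, or 6.55% and 9.75% of all transcripts on average. Every sucrose library exceeded every sorbitol library in this sum. RPL10B rose from 22.1, 21.2 and 20 TPM to 39.5, 42 and 42.8 (log2 change 0.94 ± 0.111, adjusted p = 0.000785), and AT3G16780, of the large-subunit L19e family, from 79.4, 95.4 and 74.8 to 188, 196 and 213. AT1G59359 and AT1G58684, 2 small-subunit S5 genes, had identical values in every library and cannot be told apart (179, 199.6 and 165 TPM against 355, 380.01 and 409.8). The falls held RPL18AA (48.9, 56.3 and 73.5 TPM against 22.3, 22.8 and 28.4) and 3 genes described as L18ae family, AT3G14595, AT1G53560 and AT4G26060. The second and the third of these L18ae genes lost their calls without sorbitol 3 or sucrose 2, and AT1G53560 also without sucrose 1. Only 4 of the 9 falls were called without sorbitol 3, and 4 without sucrose 2.

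Proteins that build ribosomes also held many rises. Of 80 nucleolar and ribosome assembly genes, 48 rose and 5 fell (median log2 change 0.63); without sorbitol 3 the rises numbered 28. NOP56, a core protein of the box C/D particles that guide methylation of ribosomal RNA, rose from 72, 79.2 and 44.9 TPM to 245, 207 and 185, and its homologue AT5G27120 from 39.2, 42.5 and 27.4 to 142, 117 and 104. Sorbitol 3 was the lowest library for both genes, and no sucrose library came near the highest sorbitol library. MEE49, a Brix-domain protein of ribosomal RNA processing, rose from 35.7, 38.2 and 33.7 TPM to 82.7, 83.9 and 78.2 (log2 change 1.16 ± 0.17, adjusted p = 0.00154). Of the falls, AT5G39590, described as a nucleolar protein with a TLD domain, kept its call in every leave-one-out fit, going from 109, 118 and 119.8 TPM to 86.7, 75.2 and 69.3. The falls numbered 2 without any 1 sorbitol library or without sucrose 2, and 3 without sucrose 3. Of 61 DEAD/DEAH-box RNA helicases, 26 rose and 3 fell; the rises numbered 12 without sorbitol 3, 13 without sucrose 1 and 12 without sucrose 2, and the falls 1 without sorbitol 2 or sucrose 2. AT1G51380 was the helicase with the smallest adjusted p, rising from 1.97, 2.61 and 0.96 TPM to 11.2, 9.53 and 9.52. Of 50 RNA polymerase subunits, 12 rose and 3 fell. ATRPAC42, whose name marks a shared subunit of polymerases I and III, rose from 10.6, 11.5 and 8.89 TPM to 32, 25.9 and 26.4, and 1 of the 3 falls was called without sorbitol 2, sorbitol 3 or sucrose 2.

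Factors that work with the ribosome rose in number as well. Of 85 translation initiation and elongation factors, 39 rose and 6 fell (median 0.42). The rises numbered 16 without sorbitol 3, 21 without sucrose 1 and 20 without sucrose 2, and the falls 3 without sorbitol 3 or sucrose 1. EIF4E, which binds the cap of messenger RNA, rose from 72.5, 65.7 and 61 TPM to 113, 118 and 122 (log2 change 0.82 ± 0.152, adjusted p = 0.00391). AT5G12110, an elongation factor 1-beta, rose from 4.44, 5.15 and 2.79 TPM to 15.8, 13.4 and 13.8. The SUI1-type initiation factor AT4G27130 went the other way, from 214, 214 and 259 TPM to 145, 141 and 156. Of 47 aminoacyl-tRNA synthetases, which load tRNAs with amino acids, 23 rose and 1 fell; without sorbitol 3 the rises numbered 7, and without sucrose 1 or sucrose 2 they numbered 9. EDD1, a glycine-tRNA ligase, rose from 28, 30.9 and 20.6 TPM to 55.9, 50.6 and 40.8, and the single fall was AT3G10250, described as a histidine-tRNA ligase, from 20.9, 23.1 and 27.4 to 12.7, 13.3 and 14.5.

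Proteins of the organelles were also among the rises. Of 235 pentatricopeptide repeat proteins, most of which bind RNA in plastids and mitochondria, 48 rose and 1 fell (median 0.37). The rises numbered 13 without sorbitol 3 (5.53%) and 16 without sucrose 1 or sucrose 2 (6.81%), close to the 5.75, 6.97 and 6.78% of all genes in those fits, and the fall was lost without sorbitol 2, sorbitol 3, sucrose 1 or sucrose 3. AT5G46580 rose from 52.7, 48.8 and 35.1 TPM to 101, 95.7 and 80.6, and emb1796, known by its embryo-lethal mutant, from 10.8, 12.5 and 8.47 to 36.6, 33.6 and 27.7 (log2 change 1.54 ± 0.267, adjusted p = 0.00299). Of 65 mitochondrial import and carrier proteins, 22 rose and 4 fell. The rises numbered 13 without sorbitol 1, 12 without sorbitol 3 and 13 without sucrose 2, and the falls 2 without sorbitol 2 or sucrose 2. Paralogues went in opposite directions: the import protein gene MEE67 rose from 6.65, 8.54 and 6.3 TPM to 21.3, 24.7 and 22.8, whereas TIM23-1, a channel subunit of the inner membrane translocase, fell from 33.3, 34.4 and 42.3 to 20.4, 21.4 and 23.4. TOM20-2, a receptor of the outer membrane translocase, rose from 33.5, 35.6 and 35.9 TPM to 54.5, 55.1 and 59.6. Of 53 measured plastid-encoded genes 2 rose, below the background; ATCG00900 and ATCG01240 had identical values (0.39 ± 0.362 TPM against 1.83 ± 0.815, SD, n = 3 each) and lost their calls without sorbitol 1, sucrose 1 or sucrose 3.

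**Figure D3:**
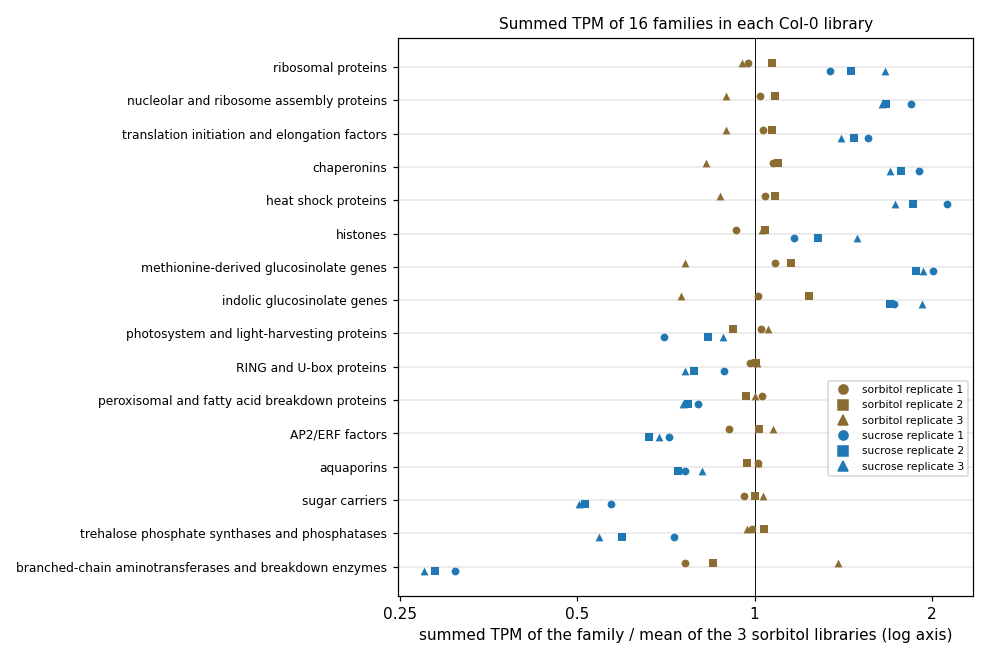
Summed TPM of 16 families in each of the 6 Col-0 libraries, divided by the mean of the 3 sorbitol libraries (x axis, log scale). In each of these selected families the sucrose libraries (blue) do not overlap the sorbitol libraries (brown). Families whose sums overlap between the sugars, such as DNA replication and glycolysis, are not shown. The uniform separation in this figure therefore follows from the choice of families. Sorbitol 3 (brown triangles) is the highest sorbitol library for branched-chain breakdown and the lowest for chaperonins and both glucosinolate families.

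Chaperonins, the barrel-shaped complexes that fold newly made proteins, were the family with the second largest share of rises. Of 19 tested genes, 15 rose and 0 fell; 7 rises were called without sorbitol 3 and 8 without sucrose 1. The summed TPM went from 2269, 2309.5 and 1748 to 4009, 3745 and 3581. Cpn60beta2, a plastid chaperonin subunit, rose from 56.5 ± 18.2 to 242 ± 28.6 TPM (SD, n = 3 each; log2 change 2.12 ± 0.267, adjusted p = 0.001). Its partners in the plastid barrel followed with smaller changes, CPN60A from 299, 312 and 202 TPM to 717, 655 and 593 and CPN60B from 332, 336 and 214 to 602, 552 and 483. CPN10, a mitochondrial co-chaperonin, rose from 79, 93.2 and 79.7 TPM to 149, 169.8 and 224. The 4 genes without a call were the RbcX proteins RbcX1 and RbcX2 (53.3 ± 19.7 TPM against 46 ± 2.18 and 67.7 ± 9.97 against 62.4 ± 2.17, SD, n = 3 each), the co-chaperonin CHL-CPN10 (77.7 ± 4.33 against 92.7 ± 22.4) and the cytosolic-type subunit AT5G26360 (137 ± 16.6 against 194 ± 33.1). Of 59 heat shock proteins, 22 rose and 2 fell, and 14 rises were called without sorbitol 1, sorbitol 2, sorbitol 3 or sucrose 2. HSP60 of mitochondria rose from 64.9, 71.3 and 50.6 TPM to 173, 143 and 145, the plastid cpHsc70-2 from 131, 119.8 and 82.5 to 343, 302 and 256, and the cytosolic HSP90 gene HSP81-3 from 177, 170.3 and 127 to 503, 442 and 407. The rises therefore held chaperones of all 3 compartments. AT5G47590, described as an alpha-crystallin type heat shock protein, fell from 24.9, 28 and 37.8 TPM to 8.73, 9.26 and 10.6.

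The ubiquitin ligase families fell more often than the background. Of 331 RING and U-box proteins, which mark other proteins with ubiquitin, 77 fell and 13 rose; the falls numbered 48 without sorbitol 3 and 44 without sucrose 2, and the rises 7 without sorbitol 3 or sucrose 1 and 8 without sucrose 2. AT4G26400 fell from 50.5, 56.3 and 62.4 TPM to 25.1, 24.8 and 22.4 (log2 change -1.19 ± 0.123, adjusted p = 0.000772), and ARI5, an ARIADNE-type ligase, from 77.8, 78.7 and 79.1 to 46.3, 39.7 and 36.6. The sorbitol libraries lay close together in both genes, sorbitol 3 included. Among the rises were VIM1, a RING protein that maintains DNA methylation (9.74, 13.3 and 8.35 TPM against 25.5, 21.2 and 21.5), and BARD1, of DNA repair (6.14, 6.12 and 4.28 against 15.9, 14.2 and 11). Of 149 F-box proteins, the substrate receptors of SCF ligases, 24 fell and 4 rose, with 11 falls without sorbitol 3 and 14 without sucrose 2, and 1 rise without sorbitol 2, sorbitol 3, sucrose 1 or sucrose 2. SKP2A, an F-box protein that targets cell cycle factors, fell from 18.9, 17.8 and 14.7 TPM to 6, 6.76 and 6.54, and AT3G07870 from 18.6, 17.1 and 18.2 to 9.22, 7.3 and 7.24. Of 42 proteasome subunits 5 rose, by 0.27 to 0.42 on the log2 scale, and 1 fell, near the background in rises and below it in falls. Without any 1 library 1 or 2 of these rises were called. The fall, that of AT1G53780, was lost without any 1 sorbitol library, sucrose 2 or sucrose 3. The papain-type protease AT4G16190 fell from 144, 156 and 231 TPM to 63.6, 59.4 and 64.4 (log2 change -1.46 ± 0.256, adjusted p = 0.00315).

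Genes that act in S phase rose in large shares. Of 39 histone genes, 24 rose and 2 fell (median log2 change 0.66), and no left-out library moved either count by more than 1.5 times. HTA6, a histone H2A, rose from 104, 109 and 91.6 TPM to 217, 244 and 253 (log2 change 1.22 ± 0.12, adjusted p = 0.000628). The H3 genes AT1G09200, AT5G65360 and AT5G10390 rose by 1.14 to 1.20 on the log2 scale; as near-identical copies they may share reads. The linker histone HIS1-3, known as responsive to drought and abscisic acid, fell from 22.1, 22.5 and 23.5 TPM to 3.27, 1.78 and 4.31, and the H2A.Z variant HTA9 fell from 213, 259 and 285 to 140.1, 141 and 174. Of 41 DNA replication genes, 24 rose and 1 fell (median 0.68), with 15 rises without sorbitol 3 or sucrose 1. TSO2, a ribonucleotide reductase subunit that supplies deoxynucleotides, rose from 31.6, 35.1 and 25.8 TPM to 91.3, 76.1 and 75.7. The helicase subunits MCM3 and MCM4 rose from 9.81, 10.2 and 5.68 TPM to 31.1, 24.8 and 20.8 and from 9.62, 10.9 and 7.21 to 28, 22.9 and 19.5. The single fall was AT1G19530, which the table describes as a DNA polymerase epsilon subunit; at 144, 253 and 774 TPM against 59, 49.6 and 66.7 it fell by 2.37 on the log2 scale, and the family's summed TPM, which holds it, overlapped between the sugars. Of 67 cyclins and cyclin-dependent kinases, 6 rose and 1 fell, a share of rises below the background. CYCA3;1 rose from 3.02, 2.63 and 2.71 TPM to 7.5, 7.43 and 6.59; 3 rises were called without sorbitol 2 or sucrose 2, 2 without sorbitol 3 or sucrose 1, and the falls numbered 2 without sorbitol 3 or sucrose 1. Of 55 kinesins and tubulins, 9 rose and 1 fell, with 1 rise without sorbitol 3 or sucrose 1 and 3 without sucrose 2, shares below those of all genes in these fits, and no fall without any 1 library.

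Wall-loosening genes split by member. Of 46 expansins and xyloglucan endotransglucosylases, 15 rose and 6 fell; the rises numbered 9 without sorbitol 3, 7 without sucrose 1 and 8 without sucrose 2, and the falls 3 without sucrose 2. EXPA15, an expansin, rose from 7.1, 10.1 and 6.96 TPM to 20.6, 21.2 and 20.2, and XTH17 from 34.1, 27.8 and 18.8 to 79.2, 63.1 and 73. In the other direction, XTH24 fell from 583, 654 and 1230.4 TPM to 209, 171 and 176 and XTH25 from 9.22, 8.29 and 9.66 to 0.91, 0.58 and 1.08 (log2 change -2.44 ± 0.224, adjusted p = 0.000467). XTH15, known as a shade-induced gene, fell from 1654, 1392 and 2754 TPM to 912, 775 and 835. The summed TPM of the family, 4973, 4585 and 6419.8 with sorbitol, was lower with sucrose, at 4339, 4006 and 3965, although more members rose than fell. Of 43 arabinogalactan proteins, 13 rose and 0 fell (median 0.55). This count rested on every library: it was 6 without sorbitol 1, 5 without sorbitol 2, 2 without sorbitol 3, 5 without sucrose 1, 3 without sucrose 2 and 8 without sucrose 3. The share without sorbitol 3 (4.65%) was below the 5.75% of all genes, and that without sucrose 2 (6.98%) was close to their 6.78%. FLA1 (45.8, 46.6 and 34.4 TPM against 96.6, 91.7 and 79.6) and AGP9 (289, 289 and 252 against 476, 461 and 436) kept their calls in all of them. Of 102 pectin-modifying genes, 12 rose and 5 fell, near the background in rises; 7 rises were called without sorbitol 2 and 5 without sorbitol 3, sucrose 1 or sucrose 2, and 3 falls without sorbitol 2, sorbitol 3 or any 1 sucrose library. The pectin rises include QRT1, at 0.08, 0.09 and 0.15 TPM against 0.74, 0.41 and 0.81. It reached 1 TPM in no Col-0 library and passed the filter only through phyA-211 (means of 66.1 and 64.5 TPM). PGIP1, an inhibitor of fungal polygalacturonases, fell from 70, 109 and 99.1 TPM to 43.2, 29.4 and 43.5.

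Sugar carriers had a lower summed level with sucrose, much of it in STP1. Of 18 measured carriers, 0 rose, 4 fell and 14 were not called, and the summed TPM went from 1355, 1415 and 1459.7 to 806, 727 and 709. STP1, the hexose and proton symporter with the highest level of the family, fell from 560.4, 615 and 688 TPM to 126, 129.6 and 155 (log2 change -2.18 ± 0.502, adjusted p = 0.0106), and STP4 from 139, 164 and 169 to 82.3, 63.7 and 56.3. SWEET2, a sugar carrier of the vacuolar membrane, and STP14 were the other falls and lost their calls without several libraries: 2 falls were called without sorbitol 1, sucrose 2 or sucrose 3, and 1 rise without sorbitol 2. The trehalose pathway, whose product trehalose 6-phosphate tracks sucrose, had members in both directions. TPS1, the active synthase, rose from 13.8, 11.5 and 9.14 TPM to 23.7, 20.8 and 17.6. AT1G60140, of the class II proteins, fell from 77.7, 80.5 and 80.6 TPM to 44.9, 34.7 and 34.6. Of the 9 tested synthase and phosphatase genes 2 rose and 5 fell; TPS5, the other rise, lost its call without any library but sucrose 3, and the falls of TPS8 and ATTPS6 were lost without sucrose 2. The falls numbered 3 without any 1 sorbitol library or sucrose 3 and 1 without sucrose 2.

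Genes of sugar breakdown rose in part. Of 77 glycolytic genes, 23 rose and 6 fell (median 0.21); the rises numbered 12 without sorbitol 3, 13 without sucrose 1 and 11 without sucrose 2, and the falls 3 without sorbitol 2 or sorbitol 3 and 2 without sucrose 2 or sucrose 3. AT1G12000, a phosphofructokinase-family gene, rose from 66.3, 69.8 and 51.8 TPM to 131, 119 and 118, and the phosphoglycerate kinase gene PGK from 210.4, 219.7 and 189.7 to 345, 319 and 316. ENO1, the plastid enolase, rose from 16.9, 18.8 and 13.8 TPM to 33.5, 28 and 31.1. Of 50 genes of the tricarboxylic acid cycle, 10 rose and 4 fell, with 5 rises without sorbitol 3 or sucrose 1; the falls numbered 2 without sorbitol 1, sorbitol 2 or sucrose 3 and 1 without sorbitol 3 or sucrose 2. The mitochondrial malate dehydrogenase mMDH1 rose from 208, 181 and 171 TPM to 339, 307 and 289.6, and CSY3, a peroxisomal citrate synthase, fell from 46.9, 52 and 53.4 to 33, 27 and 27.3, without its call when sorbitol 3 or sucrose 2 was left out.

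The oxidative pentose phosphate pathway, which makes NADPH, had members in both directions. Of 24 pentose phosphate genes, 5 rose and 5 fell, with 2 rises without sorbitol 3 or sucrose 2 and 3 without sucrose 1. G6PD3, a plastid glucose-6-phosphate dehydrogenase, rose from 6.56, 6.7 and 4.93 TPM to 32.1, 28.2 and 23.8 (log2 change 2.04 ± 0.401, adjusted p = 0.005). The 6-phosphogluconate dehydrogenase AT5G41670 rose from 47.5, 56.6 and 50 TPM to 171, 171 and 159. In both genes sorbitol 3 lay near sorbitol 1 and 2. G6PD4, another glucose-6-phosphate dehydrogenase gene, and AT4G20930, described like AT5G41670, fell from 16, 14.8 and 22.9 TPM to 8.11, 7.83 and 6.76 and from 10.3, 9.59 and 10.5 to 6.2, 5.43 and 4.7, and PGL1, a 6-phosphogluconolactonase, fell from 13.1, 13.5 and 14.3 to 6.27, 4.97 and 5. Among starch genes, APL3, a regulatory subunit of ADP-glucose pyrophosphorylase, rose from 5.19, 4.38 and 5.5 TPM to 14.2, 13.8 and 8.29 and lost its call without sucrose 2. EMB2729, described as an alpha-amylase family protein, rose from 7.19, 7.76 and 4.61 TPM to 32.2, 24 and 19.4, and the beta-amylase genes BAM4 and BMY3 fell from 28.4, 29.9 and 32.5 to 15.7, 14.6 and 14.9 and from 89.1, 96.7 and 86.1 to 52.7, 45 and 45.4. GolS1, which starts raffinose synthesis, fell from 5.7, 9.15 and 7.36 TPM to 2.19, 2.91 and 2.7.

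Fatty acid breakdown fell more often than it rose. Of 42 peroxisomal genes, 13 fell and 4 rose (median -0.25); the falls numbered 7 without sorbitol 2 or sorbitol 3, 6 without sucrose 2 and 8 without sucrose 3, and the rises 2 without sorbitol 3. The acyl-CoA oxidases ACX4 and ACX2, which start beta-oxidation, fell from 200.4, 205 and 233 TPM to 90, 77.4 and 76.2 and from 107, 118 and 135 to 52, 44.9 and 42.9. PEX13, part of the peroxisomal protein import pore, fell from 206, 209.7 and 262 TPM to 121, 121 and 134 (log2 change -0.84 ± 0.127, adjusted p = 0.00177). The thiolase isoforms split: PKT3 fell from 232, 242 and 254 TPM to 174, 158 and 150.1 and KAT5 rose from 20.5, 17.1 and 14.3 to 40.1, 48.3 and 41.

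Breakdown of the branched-chain amino acids had the largest share of falls of the 75 families (61.5%). Of 13 genes described as branched-chain aminotransferases or breakdown enzymes, 8 fell and 2 rose (median log2 change -1.13), and no left-out library changed either count by more than 1.5 times. The summed TPM was 1133, 1268 and 2068 with sorbitol and 462, 427 and 409 with sucrose. Sorbitol 3 was the highest library and every sorbitol library was far above all sucrose libraries. BCAT-2, the mitochondrial aminotransferase that starts breakdown, fell from 192, 242 and 487 TPM to 13.5, 16.7 and 14.3 (log2 change -4.17 ± 0.752, adjusted p = 0.00356). IVD, the dehydrogenase of the leucine branch, fell from 294, 329.8 and 532 TPM to 65.1, 64.4 and 67.3, and MCCB, a carboxylase subunit of the next step, from 124, 149 and 215 to 50.4, 43.7 and 39.3. ETFQO and ETFBETA, which pass the electrons of these dehydrogenases to the respiratory chain, fell from 56, 51.4 and 78.1 TPM to 22.9, 17.1 and 16.8 and from 49.9, 46.8 and 81.4 to 26.5, 26.5 and 24.3. MCCA, the partner of MCCB (235, 265 and 493 TPM against 42.6, 40.2 and 42.4), lost its call without sorbitol 3, and ETFALPHA, at -0.53 the smallest of the 8 falls, without sucrose 2. DIN4, known as an E1 beta subunit of the branched-chain keto acid dehydrogenase and described in the table only as a transketolase family protein, fell from 124, 147 and 223 TPM to 37.2, 34.8 and 38.9.

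The 2 rises of that family, BCAT3 and BCAT4, are enzymes that act in methionine chain elongation, the start of the aliphatic glucosinolates. Glucosinolates are sulfur-rich defence compounds of the mustard order, made in leaves from methionine or tryptophan. Of 23 tested genes for methionine-derived glucosinolates, 20 rose and 0 fell, the largest share of rises of any family here, with a median log2 change of 1.27; 13 rises were called without sorbitol 3 or without sucrose 2. The summed TPM was 474, 505 and 333 with sorbitol and 879.7, 821 and 843 with sucrose. Sorbitol 3 had the lowest sum, and every sucrose library exceeded every sorbitol library.

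The chain elongation genes come first in the pathway. BCAT4 rose from 1.2, 2.86 and 0.09 TPM to 6.3, 8.78 and 10.8. MAM1 and IMS2, which condense the elongating chain with acetyl-CoA, rose from 5.34, 7.2 and 0.81 TPM to 14.5, 17.4 and 20.4 and from 3.08, 6.38 and 1.2 to 24.8, 18.4 and 28. IPMI2, an isomerase subunit, rose from 2.1, 3.3 and 0.51 TPM to 14.4, 17.1 and 20.5 (log2 change 2.74 ± 0.441, adjusted p = 0.00231), and IMD1, the dehydrogenase of the cycle, from 4.96, 7.34 and 2.13 to 31.7, 30.5 and 38.9. All 5 genes were separated between the sugars in every library. IMD2, IMD3 and IIL1, whose enzyme types also serve leucine synthesis, had log2 changes of 0.36, 0.76 and 0.51. Of these, IMD2 kept its call only without sorbitol 2, and IIL1 only without sorbitol 2 or sucrose 3.

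The core structure genes come next. CYP79F2, which makes aldoximes from the elongated methionine, rose from 0.72, 1.1 and 0.18 TPM to 6.79, 6.44 and 9.34 and CYP83A1, the next oxidase, from 6.74, 9.6 and 2.03 to 23.4, 30.6 and 36.4. SOT17, a sulfotransferase of the last step, rose from 2.87, 4.24 and 1.49 TPM to 13, 12.2 and 15.5, and BAT5, a plastid carrier of the chain-elongation acids, from 0.89, 1.57 and 0.46 to 4.62, 3.71 and 4.78. MYB28, the master activator of these genes, rose from 23, 22.6 and 11.6 TPM to 44.7, 34.3 and 29.2 with an adjusted p of 0.048, and its call was lost without any 1 of the 6 libraries. The members without a call were FMO GS-OX1, FMO GS-OX5 and FMO, side-chain oxygenases or their relatives, with log2 changes of 0.77, 0.22 and 0.14.

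**Figure D4:**
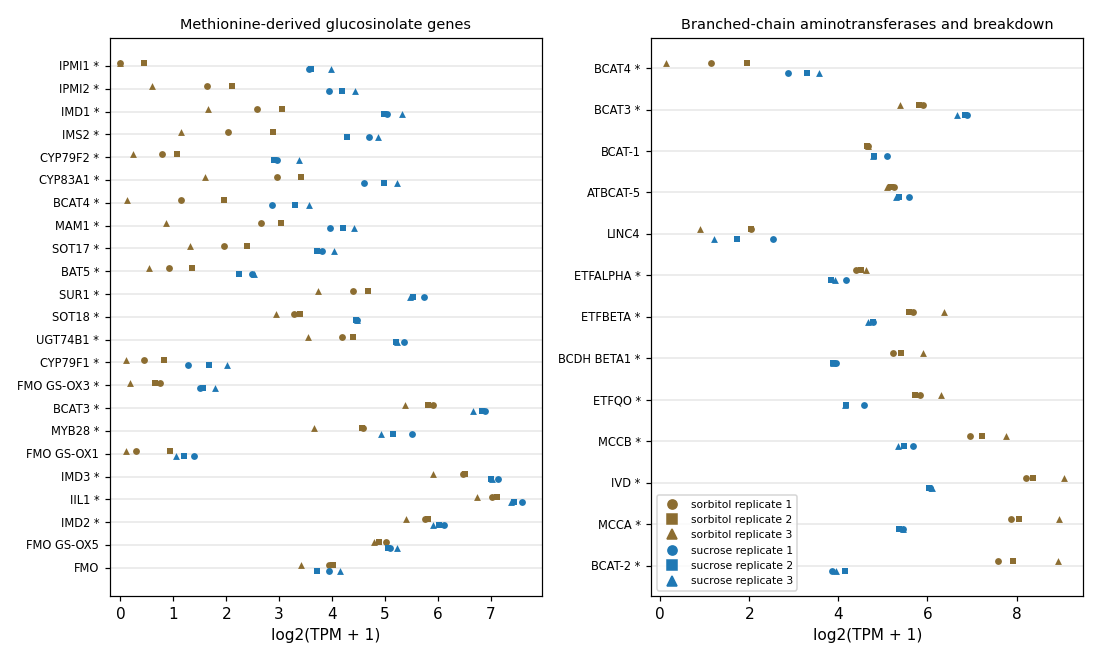
Level of each gene in each Col-0 library (x axis, log2(TPM + 1)) for the 23 tested genes of methionine-derived glucosinolates (left) and the 13 genes described as branched-chain aminotransferases or breakdown enzymes (right), with an asterisk on genes called at an adjusted p under 0.05. Of the left-hand genes 20 rose and 0 fell, and of the right-hand genes 8 fell and 2 rose, the 2 rises (BCAT3 and BCAT4) standing in both panels.

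The indolic branch, which starts from tryptophan, rose in part. Of 13 genes, 7 rose and 0 fell; the rises numbered 2 without sorbitol 3, 3 without sucrose 1 or sucrose 2 and 4 without sucrose 3. CYP79B2, which makes indole-3-acetaldoxime, rose from 9.95, 16.2 and 3.93 TPM to 51.5, 42.5 and 45.5 (log2 change 2.28 ± 0.463, adjusted p = 0.00577). GSTF9, a glutathione transferase placed in this pathway, rose from 238, 301 and 199 TPM to 428, 496 and 612. The next enzyme, CYP83B1, rose from 38.4, 46.7 and 19.1 TPM to 115, 92.7 and 85.7, with its call lost without sorbitol 3 or any 1 sucrose library. The regulator genes MYB51 (8.58 ± 0.887 against 8.35 ± 0.992 TPM, SD, n = 3 each) and MYB122 (0.507 ± 0.0153 against 0.85 ± 0.251) were not called. Of 18 sulfate uptake and assimilation genes, 3 rose and 0 fell, with 1 rise without sorbitol 3 or sucrose 1. APR1, the APS reductase that reduces sulfate for cysteine and is known to respond to sugars, rose from 4.14, 5.44 and 3.18 TPM to 18.9, 15.9 and 17.6.

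Of 76 amino acid carriers, 10 fell and 2 rose, a share of falls (13.2%) near the background; the falls numbered 5 without sorbitol 1, sorbitol 2 or sucrose 3 and 4 without sorbitol 3 or sucrose 2, and the rises 0 without sorbitol 3 or sucrose 1 and 1 without sucrose 2 or sucrose 3. UMAMIT33 fell from 29.6, 36.7 and 71.1 TPM to 10.8, 5.06 and 8.73, and AT2G40420, a transmembrane amino acid transporter, from 29.9, 34.2 and 43.8 to 10.8, 10.4 and 10.1 (log2 change -1.68 ± 0.274, adjusted p = 0.00246). NIR1, the nitrite reductase of plastids, rose from 271, 231 and 163 TPM to 437, 460.5 and 375 and lost its call without sorbitol 3, sucrose 1 or sucrose 2.

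Photosystem and light-harvesting genes held fewer calls than the background, and the enzymes of chlorophyll synthesis held more rises. The rises among 10 Rubisco and Calvin cycle genes were 1 Rubisco small subunit and 2 Rubisco accumulation factors. Of 65 photosystem and light-harvesting genes, 6 rose and 1 fell (median -0.08), and the rises numbered 2 without sorbitol 3 or sucrose 2. Their summed TPM was 119795, 107041 and 122996 with sorbitol and 81822, 97065 and 103293 with sucrose, or 11.7% and 9.42% of all transcripts, with no overlap. LHB1B1, an LHCB1 copy whose reads near-identical copies can share, carried the single fall (2711, 2212 and 4377 TPM against 896, 1052 and 1227), which was lost without any 1 library. ELIP2, an early light-induced protein that binds free chlorophyll, rose from 11.6, 21.6 and 36.9 TPM to 77.6, 67.1 and 51.2. Of 25 chlorophyll synthesis genes, 7 rose (28%) and 0 fell; 4 rises were called without sorbitol 2, 2 without sorbitol 3 and 3 without sucrose 1 or sucrose 2. GSA2, which makes aminolevulinic acid, the first precursor, rose from 92.2, 100.3 and 64.2 TPM to 144, 141 and 126. Of 10 Rubisco and Calvin cycle genes 3 rose and 0 fell: RBCS1B and the Rubisco accumulation factors AT3G04550 (94.2, 71.4 and 69.3 TPM against 166, 164 and 132) and AT5G28500, the last losing its call without sucrose 2. RBCS2B and RBCS3B, near copies of RBCS1B, were not called (3141 ± 336 TPM against 3921 ± 216, and 4754 ± 303 against 5308 ± 971, SD, n = 3 each), and reads shared between such copies can be assigned to either.

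Detoxification and glycosylation families were near the background, with members in both directions. Of 146 cytochrome P450 genes, 16 rose and 16 fell; the rises numbered 8 without sorbitol 3, 6 without sucrose 1 and 10 without sucrose 2, and the falls 9 without sorbitol 2, 10 without sorbitol 3 and 8 without sucrose 2. CYP735A2, which makes trans-zeatin type cytokinins, rose from 0.93, 0.76 and 0.76 TPM to 7.19, 5.3 and 7.39 (log2 change 2.06 ± 0.344, adjusted p = 0.00267). CYP71B3 fell from 6.75, 7.26 and 9.5 TPM to 1.46, 1.76 and 1.51 and BAS1, which inactivates brassinosteroids, from 11.1, 11.7 and 12.4 to 6.42, 6.65 and 7.01. Of 95 UDP-dependent glycosyltransferases, 9 rose and 13 fell, and no left-out library moved either count by more than 1.5 times. UGT78D1, which attaches rhamnose to flavonols, rose from 20.4, 20.1 and 12.6 TPM to 41.6, 53.4 and 43.4, and AT1G06000, a glycosyltransferase, from 29.1, 27.9 and 18.3 to 82, 95.3 and 67.1. UGT74F2, which glucosylates salicylic acid, fell from 45.8, 55.2 and 52.1 TPM to 21.4, 23.1 and 20.7, and UGT71B6, which glucosylates abscisic acid, from 1.52, 2.13 and 2.5 to 0.39, 0.37 and 0.29. Of 44 glutathione transferases, 5 rose and 5 fell. GSTU20 rose from 28.3, 36.8 and 19.3 TPM to 64.7, 83.4 and 100, GSTU16 fell from 70.4, 70.8 and 85.7 to 25.2, 30.1 and 30.8, and the count of rises was 3 without sucrose 2 while the falls numbered 2 or 3 without any 1 library.

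Among transcription factors, the AP2/ERF, NAC, B-box and bZIP families had shares of falls above the background, of 26.6, 22.6, 19.2 and 17.4%. Of 79 AP2/ERF factors, 21 fell and 7 rose; no left-out library moved the falls by more than 1.5 times, and the rises numbered 3 without sorbitol 1, 1 without sorbitol 3 or sucrose 2 and 2 without sucrose 1. TEM1, an AP2/B3 factor that represses flowering, fell from 159, 172 and 183 TPM to 35.9, 37.8 and 50.4 (log2 change -2.04 ± 0.134, adjusted p = 9.52e-05). Its 3 sorbitol libraries lay close together, sorbitol 3 included. AT4G39780 fell from 16.4, 15.7 and 16.7 TPM to 6.92, 6.9 and 6.88, and ERF2, an ethylene response factor, from 11, 12.5 and 14.2 to 3.74, 6.15 and 6.53. ANT, which prolongs cell division in growing organs, rose from 10.8, 11.9 and 7.95 TPM to 18.6, 15.3 and 12.4; the call (limma adjusted p = 0.0472) was lost without sorbitol 1, sorbitol 3, sucrose 1 or sucrose 2.

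Of 62 NAC factors, 14 fell and 3 rose, with 9 falls without sorbitol 2, sorbitol 3 or sucrose 2. NAP, an activator of leaf senescence, fell from 26.9, 30.5 and 28.4 TPM to 1.45, 1.69 and 3.35 (log2 change -3.27 ± 0.475, adjusted p = 0.00153). NAC6, also called ORE1 and known in age-dependent cell death, fell from 34.5, 34 and 43.4 TPM to 9.05, 8.08 and 10.6, ATAF1 from 21.6, 26.6 and 23 to 7.7, 9.18 and 9.82, and RD26, of drought responses, from 31.5, 36.8 and 47.3 to 10.3, 8.48 and 10.4. The 4 senescence and stress factors had no overlap between the sugars, like 1965 of the 1976 genes that fell. Of 46 bZIP factors, 8 fell and 0 rose, with 5 falls without sorbitol 1 or sorbitol 3 and 4 without sucrose 2. bZIP1, a factor of the low-energy response, fell from 69.9, 91.2 and 116 TPM to 17, 17.6 and 22.4, and BZIP9, which can pair with the same group, from 44.3, 47.9 and 46.5 to 21.3, 18.6 and 20.4.

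Of 44 WRKY factors, 6 fell and 2 rose, near the background in falls and below it in rises. The rises numbered 0 or 1 without any 1 library. WRKY45 fell from 12.4, 16.6 and 29.1 TPM to 3.89, 1.13 and 2.89, WRKY26 from 25.7, 27 and 37.7 to 8.42, 7.15 and 6.57, and WRKY22, of immune signalling, from 19.5, 22.6 and 29.5 to 8.98, 7.17 and 6.52. Of 94 bHLH factors, 12 fell (12.8%, near the background) and 1 rose, with 7 falls without sucrose 2 or sucrose 3 and no rise without sorbitol 3 or sucrose 1. The iron-response factor bHLH121 fell from 87.3, 92.8 and 90 TPM to 42.5, 39.9 and 37.8, and IBH1, an inhibitor of cell elongation, from 20.1, 24.3 and 24.6 to 8.23, 10.4 and 16.1. Of 86 MYB and MYB-like factors, 10 fell (11.6%, near the background) and 4 rose; the falls numbered 6 without sorbitol 1, sorbitol 2 or sucrose 1, 2 without sorbitol 3 and 1 without sucrose 2, and the rises 2 without sorbitol 2 and 1 without sorbitol 3 or any 1 sucrose library. MYB111, which activates flavonol synthesis, rose from 4.33, 2.8 and 3.6 TPM to 14.3, 12.9 and 9. Of 26 B-box factors, 5 fell and 0 rose, with 3 falls without sorbitol 1 or any 1 sucrose library; COL5 fell from 356, 337 and 317 TPM to 221, 200.2 and 188 and BBX28 from 91.9, 102 and 101 to 53, 61.2 and 68.9. Of 15 TCP factors TCP4 and TCP9 rose, a share near the background, both without a call when sorbitol 3, sucrose 1 or sucrose 2 was left out. Of 66 homeobox factors, 6 fell and 3 rose, near the background in falls and below it in rises. No homeobox rise was called without sorbitol 3 and 1 without sucrose 1 or sucrose 2. HB-12 fell from 21.5, 25.2 and 34.5 TPM to 6.58, 7.39 and 8.32.

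**Figure D5:**
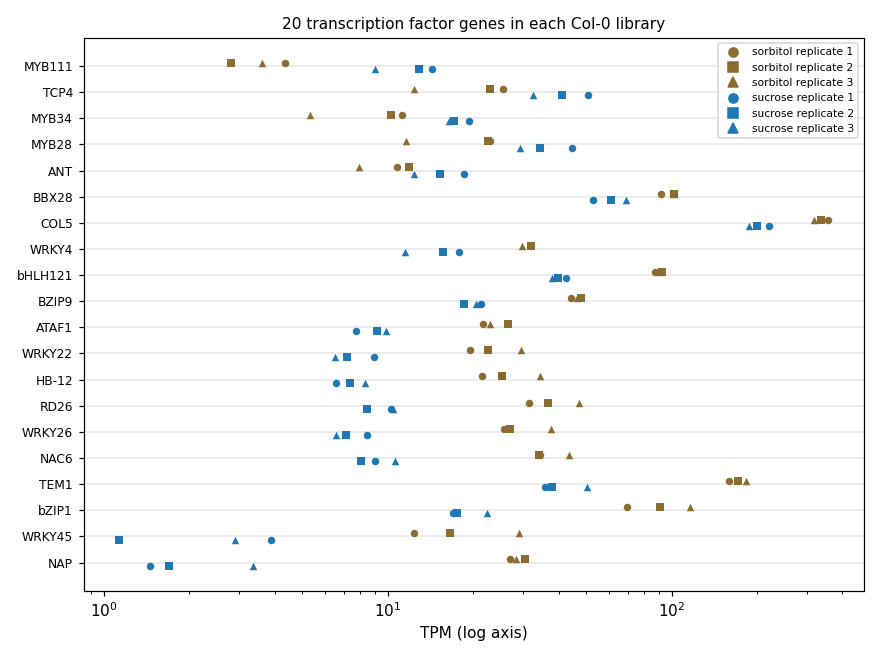
TPM of 20 transcription factor genes in each of the 6 Col-0 libraries (x axis, log scale), in order of their log2 change. MYB111 at the top rose from 2.8 to 4.33 TPM up to 9 to 14.3, NAP at the bottom fell from 26.9 to 30.5 down to 1.45 to 3.35, and sorbitol 3 is apart from the other sorbitol libraries for WRKY45, TCP4, MYB34 and MYB28.

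Hormone genes moved in a few classes. Of 28 cytokinin response and metabolism genes, 9 rose and 2 fell; the rises numbered 4 without sorbitol 3 or sucrose 2 and 5 without sucrose 1, and the falls 1 without any library but sorbitol 1. ARR7 and ARR4, type-A response regulators that are induced by cytokinin and dampen its signal, rose from 2.35, 1.67 and 2.36 TPM to 8.29, 10.2 and 10.1 and from 15.9, 14.1 and 14.4 to 34.6, 43.5 and 43.5. CKX5, which degrades cytokinin, rose from 6.93, 7.85 and 5.41 TPM to 12.8, 13.2 and 12.4, and RR1, a type-B activator, fell from 59.8, 60.8 and 59.6 to 42.2, 33 and 31. ABCG14, a cytokinin exporter, rose from 7.83, 9.59 and 5.94 TPM to 24.1, 17.2 and 19.7 and lost its call without sorbitol 3 or sucrose 1.

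Of 34 Aux/IAA and GH3 genes, 6 fell and 3 rose, and no left-out library moved either count by more than 1.5 times. IAA2 fell from 440.5, 468 and 579 TPM to 264, 272 and 306, and IAA19, a repressor known in shade elongation, rose from 30.4, 28.9 and 30.6 to 43.8, 49.3 and 59.2 (log2 change 0.73 ± 0.14, adjusted p = 0.00433). Auxin-induced genes of this kind therefore stood on both sides. Of 59 SAUR genes, 4 fell and 1 rose, below the background in both directions; the falls numbered 2 without sorbitol 3, sucrose 1 or sucrose 2 and the rises 3 without sucrose 1. SAUR36, known to promote leaf senescence, fell from 12.1, 13 and 17.6 TPM to 4.97, 5.41 and 5.8.

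Of 53 type 2C protein phosphatases, 9 fell and 1 rose, with 5 falls without sorbitol 1, sorbitol 2, sucrose 1 or sucrose 3 and no rise without any library but sorbitol 1. ABI1, which shuts off abscisic acid signalling and is itself induced by the hormone, fell from 65.2, 72.7 and 78.8 TPM to 33.9, 31.8 and 33.8 (log2 change -1.09 ± 0.119, adjusted p = 0.000782). CDPK2, a calcium-dependent kinase, fell from 50.4, 67.7 and 90.3 TPM to 25.3, 22 and 24.6. Receptor-like kinases were called less often than the background in both directions: of 277, 15 rose and 6 fell. The rises numbered 4 without sorbitol 3, 3 without sucrose 1 and 5 without sucrose 2, and the falls 1 to 3 without sorbitol 2, sorbitol 3 or any 1 sucrose library. CLV1, a receptor that restricts stem cells, fell from 43.5, 44.2 and 48.4 TPM to 29.7, 24.9 and 19.5, and CRK30 rose from 4.61, 4.66 and 2.7 to 14.9, 14.7 and 10.

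Aquaporins, the water channels, fell in summed level, from 8575, 8226 and 8580.4 TPM to 6451, 6277 and 6887. Of 29 genes, 6 fell and 1 rose. The falls numbered 3 without sorbitol 1 or sucrose 1 and 2 without sorbitol 3 or sucrose 2. The rise, that of GAMMA-TIP, was lost without any 1 library. PIP1B, the most abundant of the falls (1754, 1738 and 2082 TPM against 1121, 1186 and 1441), kept its call only when sucrose 3 was left out, whereas SIP1;2 (6.32, 6.73 and 10.9 TPM against 3.4, 3.06 and 3.55) kept it in all 6 fits. Of 61 late embryogenesis abundant proteins and dehydrins, 6 rose and 5 fell, near the background in both directions. In this family 2 rises were called without sorbitol 3 and 3 without sucrose 1, and 8 falls without sorbitol 1. M10 fell from 20.7, 22.6 and 51.5 TPM to 1.94, 2.52 and 4.79, and XERO1, a dehydrin, from 1.42, 2.69 and 5.95 to 0.12, 0 and 0.24. Of 139 disease resistance, pathogenesis-related and defensin-like genes, 5 rose and 6 fell, below the background in both directions. All 5 rises were dirigent-like proteins, which guide the coupling of lignan precursors; AT1G55210 rose from 23, 31.1 and 26.8 TPM to 52.3, 74.7 and 74.6, and the rises numbered 3 without sorbitol 1 or sorbitol 2 and 2 without sorbitol 3 or sucrose 3. Of the falls, the defensin-like PDF1.4 went from 16.8, 25.4 and 14.2 TPM to 3.99, 2.22 and 3.48, and 1 to 3 falls were called without sorbitol 1, sorbitol 2, sorbitol 3, sucrose 2 or sucrose 3.

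The same counts were made without any family definition, over the 83 description texts that 20 or more tested genes share (5249 genes in all). The text with the largest share of rises was the histone superfamily, with 17 of 28 (60.7%), followed by OB-fold nucleic acid-binding proteins with 13 of 26 (50%). A WD-40 repeat text had 8 of 23 (34.8%), and methyltransferases that use S-adenosylmethionine had 27 of 115 (23.5%). The mitochondrial transcription termination factors, which act on organelle RNA, had 6 of 30 (20%), with 0 falls. The largest share of falls belonged to ubiquitin-like proteins, 11 of 24 (45.8%), ahead of F-box proteins with associated interaction domains, 7 of 21 (33.3%), and polyketide cyclase or lipid transport proteins, 8 of 27 (29.6%). The RING/U-box text had 51 falls of 184 (27.7%) and 5 rises, and DnaJ-domain chaperones had 11 falls of 49 (22.4%) against 4 rises. Non-coding RNAs formed the largest text, with 19 rises and 61 falls among 824 genes, below the background in both directions.

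In the phyA-211 mutant, sucrose raised 3361 genes (16.9%) and lowered 2093 (10.5%) against the mutant's own sorbitol libraries. The genotypes have separate sorbitol controls, and 1908 of the Col-0 rises were also called as rises in the mutant (79.1% of the Col-0 list, 56.8% of the mutant list), as were 1328 of the falls (67.2% and 63.4%). Opposite calls were rare, with 1 Col-0 rise and 3 Col-0 falls going the other way in the mutant. The difference between the genotypes was itself tested for all genes in limma. An unadjusted p under 0.05 was reached by 792 genes (3.99%), no more than that threshold passes where no gene differs. After adjustment 2 genes passed (0.0101%). TEM1 was 1 of these 2 genes: its fall in Col-0 stood beside 216, 199.6 and 208 TPM with sorbitol and 159, 144 and 129.7 with sucrose in the mutant (interaction log2 1.51, adjusted p = 0.0473). The other was ath-MIR833a, listed at 0 in all Col-0 libraries and in the mutant's sorbitol libraries and at 15.2, 15.9 and 23.6 TPM in its sucrose libraries (interaction log2 4.24, adjusted p = 5.33e-05).

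Some genes described above had quite different values in the mutant without passing that test. XTH15 changed by -1.14 in Col-0 and stood at 1691 TPM with sorbitol and 2249 with sucrose in the mutant (log2 change 0.41, interaction adjusted p = 0.695). WRKY70 fell in Col-0 from 9.17, 9.15 and 6.48 TPM to 2.94, 3.79 and 4.37 and rose in the mutant from a mean of 7.67 to 12.6 TPM (interaction adjusted p = 0.279). SAUR36 read 16.5 TPM with sorbitol and 17.4 with sucrose in the mutant (interaction adjusted p = 0.548). ELIP2 was low in the mutant with either sugar, at 3.74 and 4.1 TPM (interaction adjusted p = 0.999). At family level the mutant had 10 rises among the 23 methionine-derived glucosinolate genes where Col-0 had 20, 0 rises among the 13 indolic genes where Col-0 had 7, and 26 rises among the 55 kinesins and tubulins where Col-0 had 9. No member of these 3 families passed the interaction test, so these counts are values side by side and not a difference between genotypes.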

How the data were processed

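Polyadenylated RNA was sequenced from leaf portions in 12 libraries, 3 in each of 4 groups taken from the labels. The authors deposited 1 table of TPM per gene, per the file headers, and the program that made these values is not given in the sources used here. The tools named in the submitters' processing notes are HISAT2, fastp, DESeq2 and cutadapt, with TAIR10 as the build and no roles or versions. TPM holds no counts, so the depth behind each value is unknown; the libraries sum to 998274.11 to 998846.46 TPM and list 22451 to 22852 genes above 0. All sample columns were used. Each gene's symbol and description come from the table; 22 symbols that a spreadsheet had turned into dates, and 28 missing ones among the tested genes, were taken from RefSeq, and the 11649 tested genes that lack one are named by their locus.

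Genes with at least 1 TPM in at least 3 libraries were kept. Values were taken as log2(TPM + 1), which understates the change of low genes, and fitted in limma 3.58.1 (R 4.3.3) as 4 group means over all 12 libraries with empirical Bayes moderation along a mean trend. Col-0 sucrose minus Col-0 sorbitol was the tested contrast, with Benjamini-Hochberg adjustment over all 19862 genes and a threshold of 0.05; the same contrast in phyA-211 and the interaction were fitted beside it. The fit was tested on simulated data. Tables were handled in Python 3.11.15 with pandas 2.3.3 and numpy 2.4.6. Families were built by matching words in the deposited descriptions, with patterns tidied after the texts were read, and 46 genes stand in more than 1 family. The members and lists were chosen with earlier results of these data known.

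Named genes are the 15 steepest called rises and falls with a group mean of 5 TPM or more in Col-0 and no overlap, the 10 largest gains and losses in TPM, and up to 6 members of each family and direction with the smallest adjusted p. Other genes (tissue markers, further pathway members and those without a call, and the genes compared with the mutant) were chosen after their values were seen. Alternatives were a pseudocount of 0.1, filters of 5 TPM and none, median-ratio and quantile scaling, a fit of the 6 Col-0 libraries alone, a replicate block and leaving out each library. Promoter motifs were not analysed here.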

Additional observations from a re-analysis of the deposited data

Results flagged for a closer look

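TEM1 fell less in phyA-211 than in Col-0: the difference between the genotypes' log2 changes was 1.51 (adjusted p = 0.0473 in the interaction test), with every library of both genotypes lower with sucrose than with sorbitol. That adjusted p lay just under the threshold of 0.05. The number of genes passing the interaction test fell from 2 to 1 under several settings listed below. Of the 12 libraries, the 3 from phyA-211 on sucrose were the ones with ath-MIR833a above 0, which gave a difference of 4.24 on the log2(TPM + 1) scale (adjusted p = 5.33e-05).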

How the results depend on the processing

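Rises in Col-0 numbered 2181 to 2679 and falls 1813 to 2831 under the other filters, pseudocount, scalings, the replicate block and the fit of Col-0 alone, each within 1.5 times of 2412 and 1976. Leaving out 1 Col-0 library gave 1142 to 2166 rises, 1120 to 1626 falls and 1 to 2 interaction genes. The interaction count was 1 with median-ratio rescaling, with quantile normalization, with no filter on low TPM and with the replicate block. It was also 1 without sorbitol 1, sorbitol 2 or sucrose 1. The median log2 change of all genes was 0.08, -0.00 with median-ratio and 0.02 with quantile scaling, and 55%, 46.9% and 51.7% of calls were rises. The medians of the protease, amino acid carrier, WRKY, MYB, SAUR and defence families changed sign with both scalings and that of the gibberellin family with quantile scaling. Of 48 genes named for their size of change, none reversed; 12 lost their call without sorbitol 3, 4 to 6 without any other 1 library and 0 to 4 under the other settings. The replicate numbers did not pair the libraries (correlation of same-numbered Col-0 deviations 0.15, -0.00 and 0.31, and 1 of 3 sorbitol libraries correlating best with its own number); with the replicate block, 2181 genes rose and 1848 fell. Depth limits low genes to an unknown degree, since TPM holds no counts.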
